A study of Mus musculus with 12 samples.

Results

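The response of Trpm5-/- marginal zone B cells to lipopolysaccharide (LPS) is described here across all expressed genes. Of the 12 libraries of the series, 4 hold this response. They are 2 libraries of Trpm5-/- cells kept for 4 h with 10 µg/mL of LPS and 2 libraries of Trpm5-/- cells kept for 4 h without stimulus. Of 24346 gene symbols in the deposited tables, 10797 reached at least 1 FPKM (a fragment count scaled to transcript length and library size) in at least 2 of the 12 libraries, and these were tested. The remaining 8 libraries, again 2 in each group, came from Trpm5-/- cells given 10 µg/mL of anti-IgM for 4 h and from wild-type cells kept unstimulated or given LPS or anti-IgM at the same dose and time. These 8 libraries entered the filter and the estimate of the spread behind every standard error and p below, and they serve to show where the response of Trpm5-/- cells to LPS differs. Fitted on its own 4 libraries, the response had 3554 genes called higher and 3436 lower, against 3759 and 3654 with all 12. Whether replicate libraries stem from separate mice or cultures, and whether mice were pooled, is not stated in the labels. A p-value therefore measures only how these libraries spread, and that spread may be technical. The part of Trpm5 that is deleted, like the strain and age of the mice, is not given in the sources examined.

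Marginal zone B cells are innate-like B lymphocytes at the border of the splenic white pulp, where they meet antigens carried by the blood. LPS, a glycolipid of the outer membrane of Gram-negative bacteria, is bound by Toll-like receptor 4 (TLR4) together with its co-receptor MD-2. The adaptors MYD88 and TRIF then pass the signal to NF-kB, MAP kinases and interferon regulatory factors, and B cells leave their resting state, grow and secrete cytokines. TRPM5 is an ion channel of the plasma membrane that opens when intracellular calcium rises and lets monovalent cations through. The title of the series concerns the part of this channel in calcium signals that LPS evokes in B cells.

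The FPKM of the 4 libraries summed to 580431 and 586021 without stimulus and to 805373 and 749063 with LPS, and between 12737 and 13333 symbols were above 0. Snord96a, a small nucleolar RNA gene, alone made up 6.35% and 5.85% of the sum in the LPS libraries. The depth read from the smallest steps of the values, relative to the first wild-type unstimulated library, was 0.828 and 1.06 without stimulus and 0.83 and 0.645 with LPS. Read totals were not used here. Across genes, Pearson r of the log2 values of replicate libraries was 0.9665 without stimulus and 0.9678 with LPS, and genes are not independent replicates. Trpm5 itself was listed at 0.0236 and 0.0184 FPKM without stimulus and at 0 and 0.0303 FPKM with LPS. In the 6 wild-type libraries it lay between 0.0196 and 0.434 FPKM, and it was too low to test.

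The labelled cell type was checked against its markers. Cr2 (CD21, the complement receptor abundant on marginal zone B cells) stood at 35.1 and 39.6 FPKM without stimulus and 70.3 and 75.1 FPKM with LPS. Cd1d1, which presents lipids to natural killer T cells, stood at 12.98 and 15.3 and then 2.65 and 2.87 FPKM, and Cd9, a tetraspanin of marginal zone B cells, at 469.9 and 472 and then 458 and 421 FPKM. These 3 genes were named after their values were seen. These marginal zone markers were present in all 4 libraries. Markers of follicular B cells were present as well: without stimulus Ccr7 stood at 450 and 439, Cxcr5 at 150 and 159 and Cd55 at 149 and 144 FPKM. The genes named here therefore do not separate marginal zone from follicular B cells. Of the markers listed for other cells, the filter was passed by 1 of 14 for T cells, 1 of 10 for NK cells, 2 of 10 for neutrophils, 0 of 8 for platelets and 6 of 15 for macrophages and monocytes, and by 4 of 10 for dendritic cells, 5 of 6 for plasma cells and 7 of 10 for erythroid cells. The summed T cell markers were at 3.19 and 3.01 FPKM without stimulus and at 3.09 and 1.08 FPKM with LPS. Among them Cd8b1 was at 0.817 and 1.02 and then 1.71 and 0.734 FPKM, and Thy1 at 0 in all 4 libraries. The summed macrophage markers were at 29.5 and 31.8 FPKM and then at 26.5 and 26.9 FPKM. Among them Cd68 was at 10.2 and 6.60 and then 9.88 and 8.56 FPKM. Adgre1 was at 3.64 and 5.96 and then 1.49 and 2.13 FPKM, and Fcgr1 at 0 in all 4 libraries. Erythroid markers summed to 472 and 510.3 FPKM without stimulus and to 276 and 277 FPKM with LPS. Of 7 tested erythroid markers 3 fell and 0 rose, and the part of such cells in the results below was not tested. Stromal and endothelial markers, 2 of 10 tested, summed to 33.4 and 36.2 FPKM and then to 16.0 and 15.0 FPKM. In bulk RNA, fewer cells of a type and less RNA per cell cannot be told apart.

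Within 4 h LPS changed the RNA of most expressed genes of Trpm5-/- cells. Of the 10797 tested genes, 3759 rose (34.8%) and 3654 fell (33.8%) at a Benjamini-Hochberg adjusted p under 0.05 in limma. At an unadjusted p under 0.05 there were 7686 genes. Counts of rises and falls in the gene lists below are to be read beside the shares of 34.8% and 33.8%. A list near both shares does not stand out by its counts. Changes of at least 2-fold on the log2(FPKM + 1) scale were seen in 1378 genes that rose (12.8%) and 1674 that fell (15.5%), and changes of at least 4-fold in 194 and 366 genes. The median difference over all tested genes was -0.02 on the log2 scale, and the median standard error of a difference was 0.131. The plot of difference against level shows that both directions run through the whole range of expression, but their balance depended on level. Among genes with a mean of at least 5 FPKM over the 12 libraries, 3428 rose and 2468 fell, with a median difference of 0.12. The median ratio of a library's FPKM to each gene's geometric mean lay between 1.008 and 1.015 in all 12 libraries. The deposited values were thus already on a common median scale. That scale largely fixes a median difference near 0, and the shares of 34.8% and 33.8% depend on it. FPKM are relative values, so a change in total RNA per cell was not measured.

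**Figure D1:**
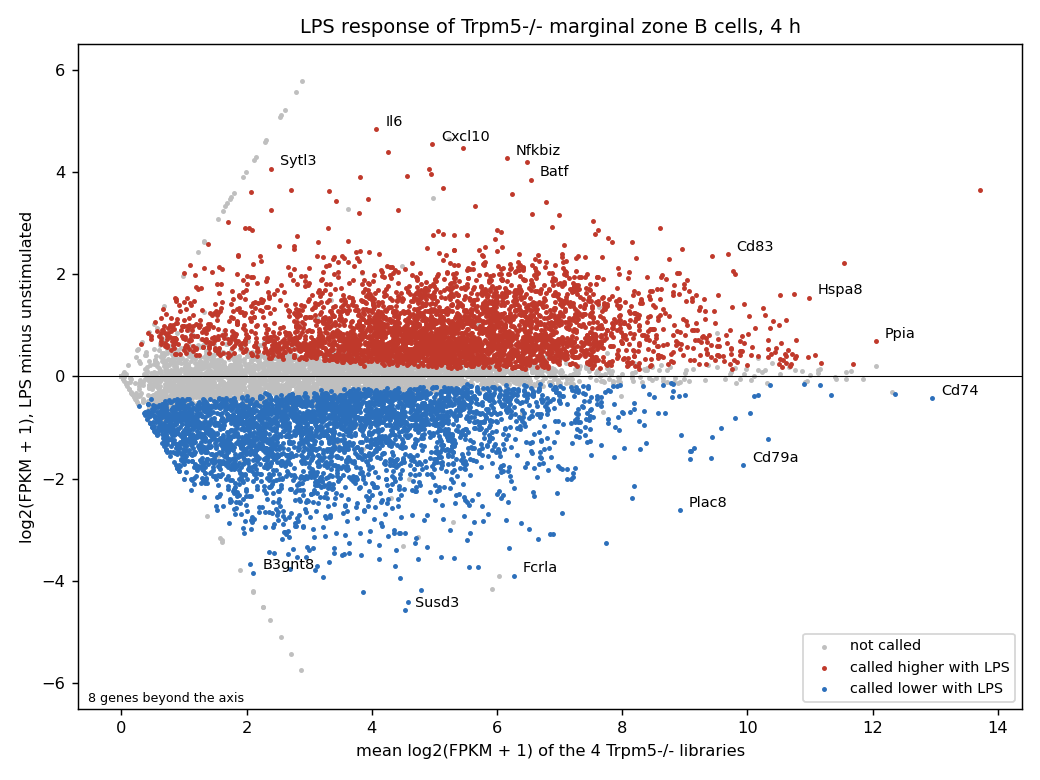
Difference in log2(FPKM + 1) between LPS and unstimulated Trpm5-/- cells (vertical axis) against the mean log2(FPKM + 1) of the 4 libraries (horizontal axis), 1 point per tested gene, red for the 3759 genes called higher, blue for the 3654 called lower and grey for the rest. Il6 lies highest among the labelled genes at 4.83 and Susd3 lowest at -4.57; 8 genes lie beyond the axis.

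The gene with the largest rise, among genes that reach a mean of 5 FPKM, was Il6 (chromosome 5, 30013114 to 30019981, plus strand; gene positions are from GENCODE M21 on GRCm38, the build also called mm10). Il6 encodes interleukin 6, a cytokine that drives inflammation and antibody responses. It read 2.02 and 2.28 FPKM in the 2 unstimulated libraries and 94.7 and 82.97 FPKM in the 2 LPS libraries. These groups lie far apart, and the ratio of the mean FPKM was 41.3-fold (log2 difference 4.83 ± 0.19, the error being the standard error of the model; limma adjusted p = 7.66e-09). Il1b, the gene of interleukin 1 beta, went from 5.998 and 6.75 to 128 and 115 FPKM (4.06 ± 0.16). Il1a, for interleukin 1 alpha, went from 0.838 and 0.872 to 23.2 and 21.3 FPKM (3.65 ± 0.33). Ebi3, the subunit that interleukins 27 and 35 share, was at 8.20 and 9.52 and then at 125 and 125 FPKM (3.68 ± 0.18). The naming rule also asked for groups that do not overlap, so the separation in these 4 genes was fixed in advance. Il10, an anti-inflammatory cytokine of regulatory B cells, was at 9.53 and 9.26 FPKM and, with more spread, at 37.4 and 26.4 FPKM with LPS (1.64 ± 0.16). Their limma adjusted p ranged from 7.66e-09 for Il6 to 5.98e-06 for Il10.

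Over all tested genes 34.8% rose and 33.8% fell. In the list of cytokines 8 of 17 tested members rose and 6 fell, with a median log2 difference of 0.17. Among those that fell were Il16, a chemoattractant of CD4 T cells, at 96.8 and 101 and then 34.96 and 37.05 FPKM (-1.43 ± 0.09), and Spp1 (osteopontin), at 8.14 and 8.45 and then 0.649 and 1.04 FPKM (-2.34 ± 0.17). Ifna4, an interferon alpha gene, was at 0.453 and 0 FPKM without stimulus and at 12.2 and 15.4 FPKM with LPS (3.61 ± 0.29, limma adjusted p = 1.33e-06). Ifna4 belongs to a family of near-identical copies, so how its copies share reads is uncertain. Ifnb1, interferon beta, was listed at 0 and 0 FPKM without stimulus and at 1.93 and 1.13 FPKM with LPS (1.32 ± 0.22, limma adjusted p = 0.000305); it was named after its values were seen.

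All but 1 of the 7 tested chemokine genes rose and 0 fell. Ccl22, which attracts T cells that bear CCR4, went from 2.89 and 3.56 to 84.02 and 89.3 FPKM (4.38 ± 0.22). Cxcl10, the interferon-inducible ligand of CXCR3, went from 6.75 and 4.40 to 163 and 137 FPKM, a log2 difference of 4.54 ± 0.39 with a wider error than that of Il6. The most abundant chemokine RNA belonged to Ccl4, which attracts monocytes and T cells, at 246 and 211 and then 587 and 582 FPKM (1.36 ± 0.07). Ccl3 stood at 47.5 and 51.4 and then 193 and 187 FPKM (1.92 ± 0.07), and Ccl5 at 7.03 and 12.9 and then 37.2 and 48.2 FPKM (2.04 ± 0.30). Xcl1, at 2.35 and 2.10 and then 3.35 and 5.17 FPKM, did not pass (limma adjusted p = 0.103). Of the ligands of the TNF family, 5 of 6 tested genes rose. Tnf went from 3.62 and 1.97 to 13.1 and 13.6 FPKM (1.95 ± 0.19) and Lta, soluble lymphotoxin, from 5.80 and 5.70 to 21.8 and 26.1 FPKM (1.88 ± 0.23). Ltb, its membrane partner and by far the most abundant of the 6, fell from 221 and 243 to 109 and 109.9 FPKM (-1.07 ± 0.07). The rises of Cd70 and Tnfsf4, ligands of T cell receptors CD27 and OX40, were small and rested on single libraries. Cd70 was at 0.311 and 0 and then 2.17 and 0.599 FPKM (limma adjusted p = 0.0406), and its p rose to 0.319 without the first LPS library and to 0.0562 and 0.18 without the first and the second unstimulated library. Tnfsf4 was at 0.423 and 0.165 and then 1.40 and 0.723 FPKM (limma adjusted p = 0.039), and its p rose to 0.248 without the first LPS and to 0.181 without the second unstimulated library.

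**Figure D2:**
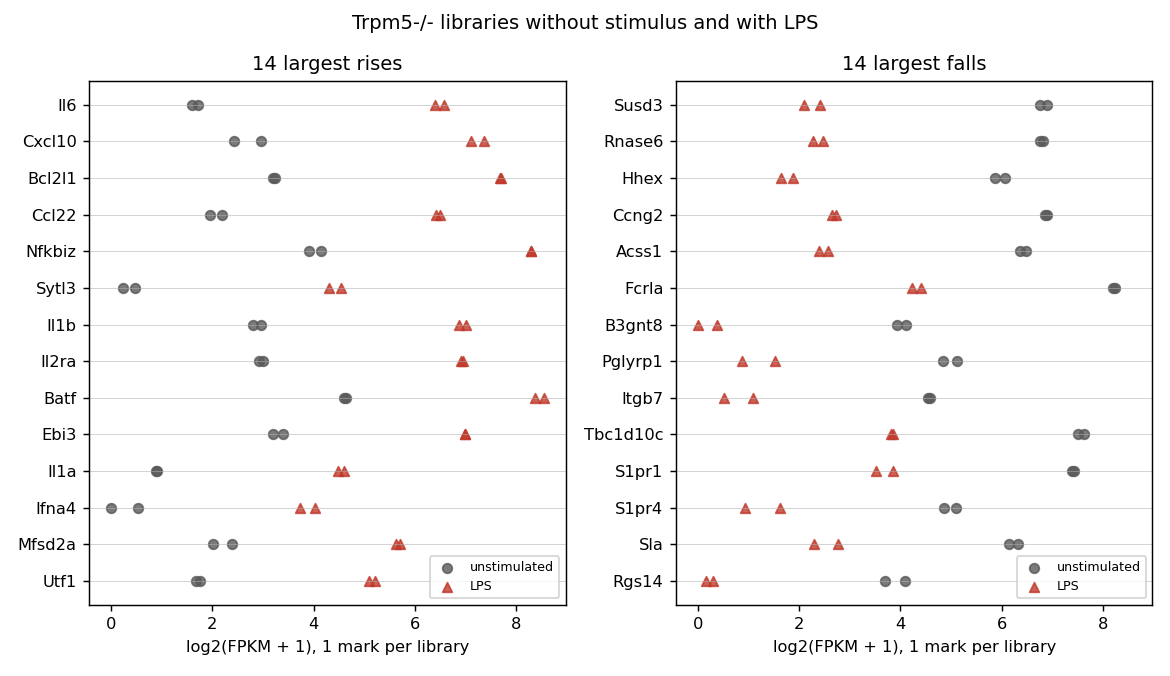
Log2(FPKM + 1) of the 14 genes with the largest rise (left) and the 14 with the largest fall (right) in Trpm5-/- cells, 1 mark per library, circles without stimulus and triangles with LPS. The naming rule asked for groups that do not overlap, so no triangle lies among the circles of the same gene. Of the genes shown, Il6 has the largest rise, 4.83, and Susd3 the largest fall, -4.57.

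The receptor for LPS was lower after 4 h. Tlr4 (chromosome 4, 66827584 to 66930284, plus strand) read 7.84 and 8.07 FPKM without stimulus and 0.108 and 0.348 FPKM with LPS, groups that do not overlap (-2.87 ± 0.21, limma adjusted p = 7.43e-07). Ly96, the MD-2 protein that holds LPS on TLR4, was at 92.98 and 80.7 and then 42.9 and 34.3 FPKM (-1.16 ± 0.13). Unc93b1, which carries nucleic acid-sensing receptors to endosomes, was at 313 and 333 and then 194 and 205 FPKM (-0.69 ± 0.05). Tlr1, a partner of TLR2, moved the other way, from 16.1 and 21.8 to 44.99 and 47.3 FPKM (1.26 ± 0.14). Of 11 tested receptors and co-receptors 3 rose and 6 fell. Of 21 adaptors and kinases below the receptors, 10 rose and 5 fell. Myd88, the main adaptor, was at 44.3 and 43.3 and then 81.7 and 87.1 FPKM (0.93 ± 0.07) and Ikbke, a kinase that activates interferon regulatory factors, at 3.99 and 2.44 and then 19.7 and 20.2 FPKM (2.34 ± 0.28). Irak2, a kinase of the MYD88 complex, fell from 33.9 and 30.8 to 10.2 and 11.8 FPKM (-1.47 ± 0.09).

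Of 21 genes that restrain TLR signals, 9 rose and 8 fell, beside 34.8% and 33.8% of all tested genes. Tnfaip3 (A20), which edits ubiquitin chains and ends NF-kB signals, went from 23.1 and 22.4 to 171 and 172 FPKM (2.86 ± 0.06). Nfkbid, an atypical inhibitor of kappa B in the nucleus, went from 191 and 193 to 379.5 and 395 FPKM (1.01 ± 0.05). Inpp5d (SHIP1), a phosphatase that opposes PI3-kinase, fell from 111 and 117 to 20.7 and 23.9 FPKM (-2.30 ± 0.09), and Irak3, the kinase-like brake of the MYD88 complex, from 18.98 and 18.4 to 3.46 and 3.53 FPKM (-2.13 ± 0.13). In each of these 4 genes, which were named for their small p, the LPS libraries lay apart from the unstimulated ones.

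The NF-kB family rose nearly as a whole. Of 13 tested subunits and inhibitors 12 rose, 8 of them at least 2-fold, and 0 fell, with a median log2 difference of 1.16 beside -0.02 over all tested genes. Nfkbiz (chromosome 16, 55811375 to 55838899, minus strand) encodes a nuclear inhibitor-like protein needed for the induction of interleukin 6, and read 14.02 and 16.6 FPKM without stimulus and 311 and 313 FPKM with LPS. The ratio of the means was 20.4-fold (4.27 ± 0.08, limma adjusted p = 2.03e-10). Nfkbia, the classical inhibitor that NF-kB itself induces, was the most abundant of those named, at 197 and 190.3 and then 985 and 912 FPKM (2.29 ± 0.05). Nfkb2, the p100 precursor of the alternative pathway, went from 86.3 and 92.7 to 247 and 241 FPKM (1.44 ± 0.05), and Nfkbib from 61.4 and 71.0 to 272 and 263 FPKM (2.002 ± 0.07). Rel, the c-Rel subunit prominent in B cells, was at 47.1 and 46.6 and then 106 and 106 FPKM (1.16 ± 0.06); it was named after its values were seen.

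Promoter letters were read for the genes that moved together. RefSeq on GRCm38.p6 gave promoters of 300 bases, from 250 before to 50 after a gene's start, for 8231 of the 10797 tested genes, in all 10402 promoters, and motifs were searched on both strands. The NF-kB consensus motif was held by 8 of 14 promoters (57.1%) of the NF-kB subunit and inhibitor genes, beside 10.2% of the promoters of all tested genes and 8.46% of all 32851 promoters in the table. Among promoters of genes that rose at least 2-fold the share was 10.8%, and among those of genes that fell at least 2-fold 10.5%, so over the whole response the motif was about as frequent on both sides. The Nfkbia promoter is shown for the gene's small p among named genes that rose at least 2-fold and whose single promoter holds the motif. It lies at chr12:55492598-55492897 on the minus strand, and capitals mark the match, whose first base lies 29 bases before the start.
Nfkbia: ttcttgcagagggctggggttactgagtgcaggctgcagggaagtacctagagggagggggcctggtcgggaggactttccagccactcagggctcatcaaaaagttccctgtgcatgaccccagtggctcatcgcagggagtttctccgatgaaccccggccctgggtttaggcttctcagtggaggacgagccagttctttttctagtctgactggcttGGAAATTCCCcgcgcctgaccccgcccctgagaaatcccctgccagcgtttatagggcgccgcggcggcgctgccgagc

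Immediate early factors were raised in part. Of 21 tested members 14 rose and 5 fell. Batf, an AP-1 family factor of activated lymphocytes, went from 23.8 and 23.4 to 373 and 331 FPKM (3.84 ± 0.13), and Jun from 9.28 and 13.9 to 66.4 and 73.3 FPKM (2.52 ± 0.19). Nr4a1 (NUR77), often used as a reporter of receptor signals, was at 91.8 and 98.5 and then 213 and 209 FPKM (1.14 ± 0.07). Egr1 was at 27.2 and 29.8 and then 34.7 and 32.8 FPKM, a log2 difference of 0.24 ± 0.07 (limma adjusted p = 0.0145). That small rise lost its call with quantile normalization (adjusted p = 0.265), without the first LPS library (0.084), without the first unstimulated library (0.106) and in a fit of the 4 libraries alone (0.0526). The AP-1 motif TGANTCA was held by 4.11% of the promoters of genes that rose at least 2-fold, 5.78% of those that fell at least 2-fold and 4.7% of those of all tested genes.

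Interferon-stimulated genes did not move as a group in 1 direction. Of 35 tested members 7 rose and 13 fell, with a median of -0.36. Oasl1, which restrains the translation of interferon regulatory factor 7, went from 17.9 and 15.2 to 125 and 113 FPKM (2.77 ± 0.13), and Isg15, a ubiquitin-like modifier, from 14.95 and 12.4 to 76.5 and 78.1 FPKM (2.42 ± 0.15). Ifih1 (MDA5), a sensor of long double-stranded RNA, rose from 1.13 and 0.885 to 6.33 and 6.39 FPKM (1.88 ± 0.15). Ddx58 (RIG-I), a sensor of short viral RNA, fell from 16.2 and 16.3 to 4.47 and 4.06 FPKM (-1.71 ± 0.14), and Samd9l, which limits translation, from 24.6 and 26.1 to 6.88 and 9.35 FPKM (-1.54 ± 0.13). The 2 RNA sensors of the same family therefore moved in opposite directions. Both were named for their small p, and neither had overlapping libraries. Among the factors, Irf4, which sets B cell activation and plasma cell fate, rose from 51.4 and 47.8 to 239 and 238 FPKM (2.24 ± 0.06). Stat5a, which relays cytokine signals, rose from 10.98 and 11.2 to 80.7 and 81.01 FPKM (2.76 ± 0.08), and Irf2, an antagonist of IRF1, fell from 49.3 and 47.2 to 9.90 and 9.46 FPKM (-2.21 ± 0.13).

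The interferon-stimulated response element, searched as GAAANNGAAA, was held by 19 of 32 promoters (59.4%) of the interferon-stimulated list, beside 3.2% for all tested genes. It was held by 3.33% of promoters of genes that rose at least 2-fold and by 3.37% of those that fell. The promoters of Ifih1 and Ddx58, which went opposite ways, both held it. The Isg15 promoter is shown as that of a gene that rose. It lies at chr4:156200769-156201068 on the minus strand, and the capitals span 3 overlapping matches whose first base lies 78 bases before the start.
Isg15: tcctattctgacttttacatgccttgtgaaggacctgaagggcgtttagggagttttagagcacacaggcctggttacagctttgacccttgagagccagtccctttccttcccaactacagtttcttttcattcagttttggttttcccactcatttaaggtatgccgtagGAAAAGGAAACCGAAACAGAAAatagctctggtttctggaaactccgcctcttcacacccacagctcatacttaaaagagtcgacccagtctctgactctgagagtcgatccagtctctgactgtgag

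At the cell surface, 19 of 25 tested costimulation and activation genes rose and 5 fell (median 1.04). Cd83, a marker of activated B and dendritic cells, was among the largest gains in FPKM of the genes the naming rule covers. It read 362 and 354 FPKM without stimulus and 1878 and 1877 FPKM with LPS (2.39 ± 0.06). Il2ra (CD25), the alpha chain of the interleukin 2 receptor, went from 6.99 and 6.62 to 119 and 122 FPKM (3.96 ± 0.09), and the adhesion molecule gene Icam1 from 42.4 and 40.8 to 313 and 331 FPKM (2.92 ± 0.07). Cd69, which holds activated lymphocytes in tissue, went from 95.1 and 99.01 to 306 and 296 FPKM (1.62 ± 0.05). Cd38, an enzyme that makes calcium-mobilising nucleotides, fell from 91.3 and 93.8 to 8.12 and 8.40 FPKM (-3.34 ± 0.08). Markers of dendritic cells moved with this group: 3 of 4 tested rose, their summed level going from 50.2 and 49.6 to 139 and 130.1 FPKM, while Batf3 and Clec10a were at 0 in all 4 libraries. Most of that sum was Zbtb46, a factor of conventional dendritic cells, at 5.27 and 6.58 and then 65.1 and 64.9 FPKM (3.26 ± 0.12), and Bst2, at 41.9 and 40.7 and then 67.9 and 59.01 FPKM (0.60 ± 0.12); the part of dendritic cells in these changes was not tested. Of the TNF receptors, TRAF adaptors and cIAPs 12 of 17 tested genes rose and 3 fell. Cd40, the receptor for T cell help, went from 84.4 and 78.2 to 311 and 320.3 FPKM (1.95 ± 0.08), the adaptor gene Traf1 from 30.5 and 30.1 to 279 and 283 FPKM (3.17 ± 0.08) and Tnfrsf13b (TACI), a receptor for BAFF and APRIL, from 52.3 and 40.2 to 207 and 238 FPKM (2.25 ± 0.12). Traf5 fell from 55.7 and 52.6 to 12.1 and 12.3 FPKM (-2.06 ± 0.10).

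Survival genes held a large rise with little spread. Bcl2l1 (chromosome 2, 152780668 to 152831728, minus strand), the gene of the anti-apoptotic protein BCL-XL, read 8.13 and 8.46 FPKM without stimulus and 204 and 206 FPKM with LPS, and the replicate libraries differed little beside the change. The ratio of the means was 24.7-fold (4.47 ± 0.06, limma adjusted p = 7.71e-11). Of 14 tested members of the BCL2 family 9 rose and 4 fell. Bcl2a1b and Bcl2a1d, copies of the anti-apoptotic A1 gene, went from 137 and 146 to 1138 and 1002 FPKM (2.91 ± 0.08) and from 32.4 and 33.1 to 385 and 333 FPKM (3.41 ± 0.13); the copies are near-identical, so the share of each is uncertain. The pro-apoptotic genes Bax and Bid rose less, Bax from 179.96 and 179 to 359 and 334 FPKM (0.94 ± 0.05) and Bid from 83.3 and 82.6 to 187 and 183 FPKM (1.15 ± 0.05).

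The largest coordinated group by count was ribosome biogenesis, the assembly of ribosomes in the nucleolus. Of 45 tested genes 45 rose and 0 fell, 44 of them at least 2-fold, with a median of 1.80 and a range from 0.86 to 2.79. Myc (chromosome 15, 61985391 to 61990374, plus strand), the transcription factor best known for driving such genes, read 70.97 and 71.3 FPKM without stimulus and 539 and 516 FPKM with LPS, a 7.41-fold ratio of the means (2.87 ± 0.05, limma adjusted p = 2.03e-10). Ncl (nucleolin) went from 173 and 168 to 663 and 661 FPKM (1.95 ± 0.05), Nop56, a core protein of box C/D particles, from 235 and 238 to 961 and 961 FPKM (2.02 ± 0.05), and Nolc1, a nucleolar scaffold, from 34.9 and 34.3 to 189 and 184 FPKM (2.40 ± 0.06). Rrp9, which binds the U3 RNA, went from 51.3 and 57.4 to 334 and 319 FPKM (2.57 ± 0.07). The list of Myc and its MAX network held 4 rises and 4 falls among 10 tested genes, beside 34.8% and 33.8% of all tested genes. Its median was 0.07 as deposited and -0.05 after quantile normalization. Mxd4, a MAX partner that represses the genes MYC activates, fell from 9.15 and 11.9 to 0.304 and 0.913 FPKM (-2.86 ± 0.25).

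The E-box CACGTG, to which MYC and MAX bind, was held by 15.6% of the promoters of genes that rose at least 2-fold, 8.84% of those that fell at least 2-fold and 10.6% of those of all tested genes. Of the promoters of the ribosome biogenesis genes 7 of 45 (15.6%) held it. Slc25a33, the mitochondrial carrier of pyrimidine nucleotides, rose from 14.4 and 15.6 to 77.7 and 75.8 FPKM (2.28 ± 0.07). The first base of its E-box lies 8 bases before the start. Its promoter is shown for the gene's small p among named genes that rose at least 2-fold and whose single promoter holds the E-box. It lies at chr4:149774218-149774517 on the minus strand, and capitals mark the E-box. The CRE core TGACGTCA was held by 2.87% of promoters of genes that rose at least 2-fold, 1.5% of those that fell and 3.29% of all.
Slc25a33: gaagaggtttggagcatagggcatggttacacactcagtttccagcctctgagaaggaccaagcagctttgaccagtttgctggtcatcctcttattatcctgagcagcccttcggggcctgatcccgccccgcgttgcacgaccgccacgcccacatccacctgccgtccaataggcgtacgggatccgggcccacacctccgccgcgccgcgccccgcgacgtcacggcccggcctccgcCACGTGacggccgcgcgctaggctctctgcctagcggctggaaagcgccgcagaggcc

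Other steps of biomass production rose with ribosome assembly. Of 28 tested nucleotide synthesis genes 23 rose and 3 fell (median 1.40). Ctps, which makes CTP, went from 29.01 and 25.7 to 170.4 and 154 FPKM (2.52 ± 0.09), and Nme1, a nucleoside diphosphate kinase, from 201 and 191 to 636 and 607 FPKM (1.66 ± 0.05). Of 39 tested cytosolic and mitochondrial chaperones 36 rose and 0 fell (median 1.44). Hspa8, the constitutive HSP70 chaperone, had the largest gain in FPKM of the genes the naming rule covers, from 1203 and 1167 to 3499.8 and 3376 FPKM (1.54 ± 0.05). Hspd1, the mitochondrial chaperonin HSP60, went from 226 and 204 to 818 and 789 FPKM (1.90 ± 0.06). Of 36 tested translation factors 32 rose and 2 fell (median 1.12), among them Eif5a, which helps ribosomes past difficult sequences, from 851 and 832 to 2592 and 2504 FPKM (1.60 ± 0.05). Aminoacyl-tRNA synthetases and their partners rose in 21 of 23 cases and fell in 0, for example Eef1e1, from 71.99 and 76.5 to 393 and 366 FPKM (2.34 ± 0.08). Srm, the spermidine synthase, went from 111 and 117 to 707 and 711 FPKM (2.63 ± 0.06) within a polyamine list of 9 rises and 4 falls among 14 tested genes. Sat1, which marks polyamines for export and breakdown, was 1 of the 4, at 311 and 303 and then 114 and 97.2 FPKM (-1.54 ± 0.07).

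Ribosomal proteins themselves moved less. Of 55 tested cytosolic ribosomal protein genes 38 rose and 1 fell, with a median of 0.40 as deposited and -0.06 after quantile normalization, so the direction of this abundant group depends on the scaling. Rpl5, a partner of the 5S RNA, stood at 487 and 461 and then 860.2 and 786 FPKM (0.79 ± 0.06), and Rplp0 at 1160.4 and 1146 and then 1774 and 1626 FPKM (0.56 ± 0.06). Mitochondrial ribosomal proteins rose in 38 of 45 cases and fell in 0 (median 0.79, and 0.48 with quantile normalization). Mrpl12 went from 90.99 and 95.01 to 320.1 and 301 FPKM (1.73 ± 0.07). Oxidative phosphorylation genes had 36 rises and 4 falls among 56, but a median of 0.28 as deposited and -0.24 after quantile normalization.

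Protein breakdown moved in 2 ways. All 38 tested proteasome genes passed the test, 35 of them higher and 3 lower (median 0.82). Psmd7, a subunit of the regulatory lid, went from 111 and 116 to 293 and 289 FPKM (1.35 ± 0.05), and Psme2, a subunit of the PA28 activator, from 334 and 333 to 969 and 877 FPKM (1.47 ± 0.07). The 3 that fell, named after their values were seen, encode the catalytic subunits of the immunoproteasome. Psmb8 read 325 and 336 and then 162 and 171 FPKM (-0.98 ± 0.06), Psmb9 142 and 141 and then 87.7 and 82.4 FPKM (-0.73 ± 0.07), and Psmb10 read 48.8 and 58.02 and then 28.1 and 30.4 FPKM (-0.84 ± 0.10). Lysosome genes went down: 24 of 32 fell and 2 rose (median -0.79). Psap, the precursor of saposins, fell from 236 and 240.3 to 68.6 and 67.3 FPKM (-1.79 ± 0.05). Ctsa and Ctsh, which encode cathepsins, had log2 differences of -1.97 and -1.58.

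**Figure D3:**
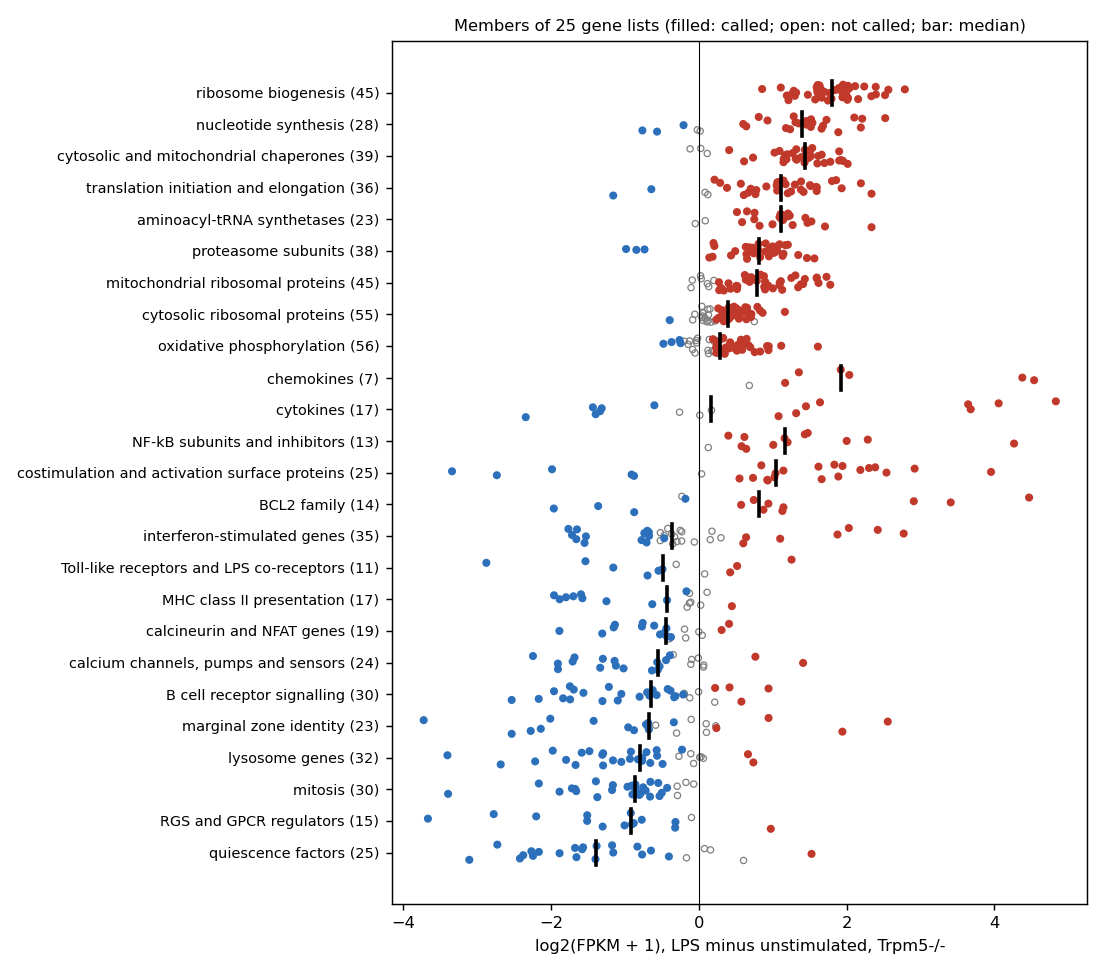
Log2 difference between LPS and unstimulated Trpm5-/- cells (horizontal axis) for the tested members of 25 gene lists (vertical axis, number of tested members in parentheses), filled red or blue where a gene was called higher or lower, open where it was not, with the list's median as a bar. Ribosome biogenesis lies wholly above 0 with a median of 1.80, and quiescence factors have the lowest median, -1.40.

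Genes that hold lymphocytes at rest fell. Of 25 tested quiescence factors 20 fell, 16 of them at least 2-fold, and 1 rose (median -1.40). Btg2, an antiproliferative factor, went from 207 and 211 to 45.96 and 39.7 FPKM (-2.26 ± 0.07), and Foxo1, a transcription factor that PI3-kinase signals inactivate, from 57.4 and 58.3 to 16.7 and 18.3 FPKM (-1.67 ± 0.07). Txnip, which limits glucose uptake, fell from 69.8 and 71.3 to 15.5 and 14.5 FPKM (-2.16 ± 0.07), and Pik3ip1, an inhibitor of PI3-kinase, from 35.5 and 32.4 to 3.48 and 2.68 FPKM (-3.10 ± 0.11). The 1 rise was Cdkn1a (p21), an inhibitor of cyclin-dependent kinases, from 6.84 and 6.29 to 22.3 and 19.4 FPKM (1.53 ± 0.16); it was named after its values were seen. Ccng2, a cyclin G gene of resting cells, fell most of the cell cycle genes, from 118 and 114 to 5.59 and 5.32 FPKM (-4.18 ± 0.08). Ccnd2, the G1 cyclin of B cells, rose from 16.3 and 13.4 to 165 and 153 FPKM (3.34 ± 0.11), and its kinase gene Cdk4 from 177 and 177 to 443 and 422 FPKM (1.29 ± 0.05).

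The G1 list as a whole held 8 rises and 9 falls among 23 tested genes, and DNA replication 12 rises and 11 falls among 41. Beside 34.8% risen and 33.8% fallen over all tested genes, neither list stands out by these counts. Mitosis genes fell in 26 of 30 cases and rose in 0 (median -0.86). Ndc80, which ties chromosomes to the spindle, fell from 29.4 and 20.9 to 1.09 and 1.91 FPKM (-3.39 ± 0.18), Ccnb2, a mitotic cyclin, from 25.6 and 23.1 to 4.65 and 4.65 FPKM (-2.16 ± 0.14) and Cenpa, the centromeric histone, from 46.2 and 47.02 to 14.2 and 12.8 FPKM (-1.72 ± 0.13). No LPS library of these 3 genes, which were named for their small p, reached the level of an unstimulated library.

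Among the 14 largest falls were receptors that guide lymphocytes through tissue. S1pr1 (chromosome 3, 115710433 to 115715072, minus strand), the sphingosine 1-phosphate receptor that keeps B cells in the marginal zone, read 167 and 170.4 FPKM without stimulus and 13.5 and 10.5 FPKM with LPS (-3.72 ± 0.15, limma adjusted p = 7.46e-09). S1pr4, another receptor of this lipid, went from 28.1 and 33.2 to 0.901 and 2.09 FPKM (-3.71 ± 0.21), and Itgb7, an integrin chain of gut homing, from 22.3 and 23.1 to 0.439 and 1.13 FPKM (-3.76 ± 0.18). Ccr7, which draws B cells towards the T cell zone, gained more FPKM than any other receptor named here, from 449.7 and 439 to 1758 and 1802 FPKM (1.999 ± 0.06), and Cxcr5, the receptor that leads cells into follicles, went from 150.4 and 159 to 389 and 394 FPKM (1.33 ± 0.05). Of 21 tested positioning receptors 6 rose and 11 fell. Regulators of G protein signals fell in 13 of 15 cases and rose in 1, among them Rgs14 at 15.9 and 12.01 and then 0.229 and 0.118 FPKM (-3.66 ± 0.17) and Rgs2 at 25.3 and 22.96 and then 2.77 and 2.58 FPKM (-2.77 ± 0.11).

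The other genes of largest fall have varied roles. Susd3 (chromosome 13, 49230690 to 49248706, minus strand), a membrane protein with a sushi domain, read 118 and 107 FPKM without stimulus and 3.26 and 4.33 FPKM with LPS, a 29.7-fold lower mean (-4.57 ± 0.16, limma adjusted p = 3.27e-09). Rnase6, a secreted ribonuclease, fell from 112 and 107 to 4.56 and 3.81 FPKM (-4.42 ± 0.12), Hhex, a homeobox factor of B cell development, from 66.2 and 57.6 to 2.71 and 2.11 FPKM (-4.21 ± 0.18) and Acss1, the mitochondrial acetyl-CoA synthetase, from 88.4 and 81.05 to 4.27 and 4.94 FPKM (-3.94 ± 0.12). Fcrla, an intracellular Fc receptor-like protein of B cells, fell from 293 and 300.01 to 20.3 and 17.7 FPKM (-3.90 ± 0.08). Sla, an adaptor that lowers antigen receptor levels, went from 78.9 and 69.6 to 5.77 and 3.90 FPKM (-3.70 ± 0.14) and Tbc1d10c (carabin), an inhibitor of calcineurin and RAS, from 179.7 and 196 to 13.5 and 12.98 FPKM (-3.73 ± 0.07). Pglyrp1, which binds bacterial peptidoglycan, fell from 27.6 and 33.7 to 0.832 and 1.87 FPKM (-3.78 ± 0.27), and B3gnt8, a glycosyltransferase, from 14.3 and 16.3 to 0 and 0.2998 FPKM (-3.84 ± 0.23). The naming rule asked that both LPS libraries of these genes lie below both unstimulated ones. The remaining large rises were Sytl3, a RAB27 effector of vesicle traffic, from 0.391 and 0.177 to 22.2 and 18.7 FPKM (4.06 ± 0.22), Mfsd2a, a lysophospholipid transporter, from 4.27 and 3.01 to 48.1 and 51.4 FPKM (3.46 ± 0.16), and Utf1, a chromatin factor first described in embryonic stem cells, from 2.38 and 2.18 to 36.2 and 33.1 FPKM (3.44 ± 0.13).

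The B cell receptor pathway was lower after LPS. Of 30 tested signalling genes 22 fell, 12 of them at least 2-fold, and 4 rose (median -0.64). Cd79a and Cd79b encode the signalling chains of the receptor and were among the largest losses in FPKM, Cd79a from 1784 and 1799 to 566 and 505 FPKM (-1.74 ± 0.06) and Cd79b from 1952 and 1975 to 877 and 814 FPKM (-1.22 ± 0.05). Btk, the kinase downstream of them, fell from 136 and 156 to 35.9 and 37.5 FPKM (-1.96 ± 0.08), and the adaptor gene Dapp1 from 52.6 and 48.6 to 8.20 and 7.65 FPKM (-2.53 ± 0.12). Inhibitory receptors and their effectors fell as well, in 12 of 19 cases with 4 rises. Cd22, a lectin that dampens the receptor, was at 75.3 and 74.7 and then 9.34 and 10.3 FPKM (-2.81 ± 0.10), and Dok3, an adaptor of negative signals, at 88.97 and 94.7 and then 6.62 and 6.91 FPKM (-3.58 ± 0.07). Cd74, the invariant chain of MHC class II, was at 9227 and 9072 and then 6956 and 6646 FPKM (-0.43 ± 0.07, limma adjusted p = 0.000363). It was the most abundant named gene apart from small RNA genes. After quantile normalization the difference was larger, -0.73, but no longer passed (limma adjusted p = 0.153). Genes of MHC class II presentation fell in 10 of 17 cases and rose in 1. Those of smallest p belonged to the peptide editors, for example H2-DMb2 at 277 and 288 and then 82.1 and 79.3 FPKM (-1.80 ± 0.05) and H2-Ob at 293 and 277 and then 76.5 and 76.8 FPKM (-1.88 ± 0.07).

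Identity genes shifted in part. Of 23 tested marginal zone genes 13 fell and 4 rose (median -0.67), and of 15 follicular genes 7 fell and 5 rose (median -0.09). Mzb1, a chaperone of IgM assembly, fell from 609.8 and 606 to 139.6 and 136 FPKM (-2.14 ± 0.06), and Plxnd1, a semaphorin receptor, rose from 1.94 and 1.67 to 15.5 and 15.5 FPKM (2.56 ± 0.16). Fcer2a (CD23), the low-affinity IgE receptor used to mark follicular B cells, rose from 83.5 and 85.7 to 560.4 and 554 FPKM (2.71 ± 0.08), while Cd55, a complement regulator, fell from 149 and 144 to 21.6 and 22.3 FPKM (-2.68 ± 0.06). Of 21 tested genes of the switch to plasma cells 11 fell and 3 rose. Ets1 and Id3, which hold back that switch or the E proteins, fell from 235 and 232 to 21.1 and 22.4 FPKM (-3.36 ± 0.07) and from 299 and 308 to 33.1 and 32.1 FPKM (-3.18 ± 0.07). Id2, a relative of Id3, rose from 45.7 and 41.3 to 244 and 216 FPKM (2.38 ± 0.07). Of 5 tested plasma cell markers 4 fell and 1 rose, and their summed level went from 185 and 194 FPKM to 159 and 165 FPKM. Sdc1 (CD138) was at 14.8 and 14.1 and then 1.80 and 0.934 FPKM (-2.73 ± 0.19).

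Because TRPM5 is gated by calcium, genes of calcium transport and of the calcineurin pathway were listed separately. Of 24 tested channels, pumps and sensors 16 fell and 2 rose (median -0.56). Trpv2, a cation channel of leukocytes, fell from 29.9 and 35.7 to 6.54 and 5.73 FPKM (-2.24 ± 0.12), and Itpr3, an inositol trisphosphate receptor of calcium stores, from 10.9 and 10.5 to 2.62 and 2.55 FPKM (-1.71 ± 0.13). The 2 pumps of the endoplasmic reticulum among them moved apart, Atp2a3 from 58.05 and 59.5 to 14.1 and 15.9 FPKM (-1.91 ± 0.11) and Atp2a2 from 38.8 and 36.6 to 108 and 96.8 FPKM (1.41 ± 0.08). Orai1, the pore of store-operated entry, rose from 26.1 and 26.6 to 47.7 and 43.4 FPKM (0.77 ± 0.07). In the calcineurin and NFAT list 12 of 19 tested genes fell and 2 rose (median -0.44). Nfatc1 was at 121 and 122 and then 67.3 and 74.5 FPKM (-0.77 ± 0.07), Ppp3cc, a catalytic subunit of calcineurin, at 56.9 and 56.5 and then 24.4 and 26.3 FPKM (-1.13 ± 0.09) and Rcan3, a calcineurin regulator, at 3.94 and 3.74 and then 0.365 and 0.261 FPKM (-1.88 ± 0.18).

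Wild-type cells, whose 4 libraries are not among those of the Trpm5-/- response, show where the response differed between genotypes. LPS changed 7489 genes in them, and 6640 genes were called in both genotypes, 89.6% of the Trpm5-/- calls and 88.7% of the wild-type calls. Of these 6634 moved in the same direction and 6 in opposite directions. Across genes, Pearson r of the log2 differences was 0.868, the slope of Trpm5-/- on wild type was 0.856, and the median size of a difference was 0.612 in Trpm5-/- and 0.627 in wild-type cells; these describe genes, which are not replicates. Of the 3052 genes changed at least 2-fold in Trpm5-/- cells, 3043 had a wild-type difference of the same sign. The rise of Il6 was 4.83 in Trpm5-/- and 4.85 in wild-type cells, a difference of -0.02 ± 0.27. For Cxcl10 the difference of the responses was 0.89 ± 0.54, for Il10 0.53 ± 0.23 and for Tlr4 -0.50 ± 0.30, and none of these passed (limma adjusted p of 0.461 to 0.992). For Myc the responses were 2.87 and 3.04, a difference of -0.17 ± 0.07 (limma adjusted p = 0.484).

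The test of the difference between genotypes called 11 genes (0.102% of those tested; 1113 at an unadjusted p under 0.05), 7 with a higher and 4 with a lower response in Trpm5-/- cells. The median standard error of this difference was 0.185, so a difference smaller than a few such errors was not detectable for a typical gene; 108 of 8526 genes with a group mean of at least 5 FPKM differed by 1 or more. Lrmp (chromosome 6, 145115653 to 145174934, plus strand), a membrane protein of the endoplasmic reticulum in lymphocytes, was at 63.3 and 66.2 FPKM without stimulus and 42.9 and 44.2 FPKM with LPS in Trpm5-/- cells. In wild-type cells it was at 53.2 and 51.04 and then 8.88 and 12.3 FPKM. Its log2 response was -0.56 in Trpm5-/- and -2.21 in wild-type cells, a difference of 1.65 ± 0.15 (limma adjusted p = 0.00305), and of the 7 genes named by the rule only Lrmp kept its call under every alternative run. Vps37b, a subunit of the ESCRT-I sorting complex, differed by 0.81 ± 0.11 and Pepd, a dipeptidase that cleaves before proline, by 0.74 ± 0.10. Gpr183 (EBI2), the oxysterol receptor that places B cells at the follicle edge, rose in both genotypes, less so in Trpm5-/- cells (-0.58 ± 0.08), and so did Bid (-0.46 ± 0.06). Klk1b22, a kallikrein with near-identical copies, was listed at 0 in all Trpm5-/- libraries, so its difference of 2.48 comes from wild-type cells alone. Amd2 differed by -3.80 ± 0.51 but is near-identical to Amd1, so its share is uncertain. The other 4 of the 11 are genes of small RNAs (Mir324, Snora31, Snord16a and Snord33), named after their values were seen.

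**Figure D4:**
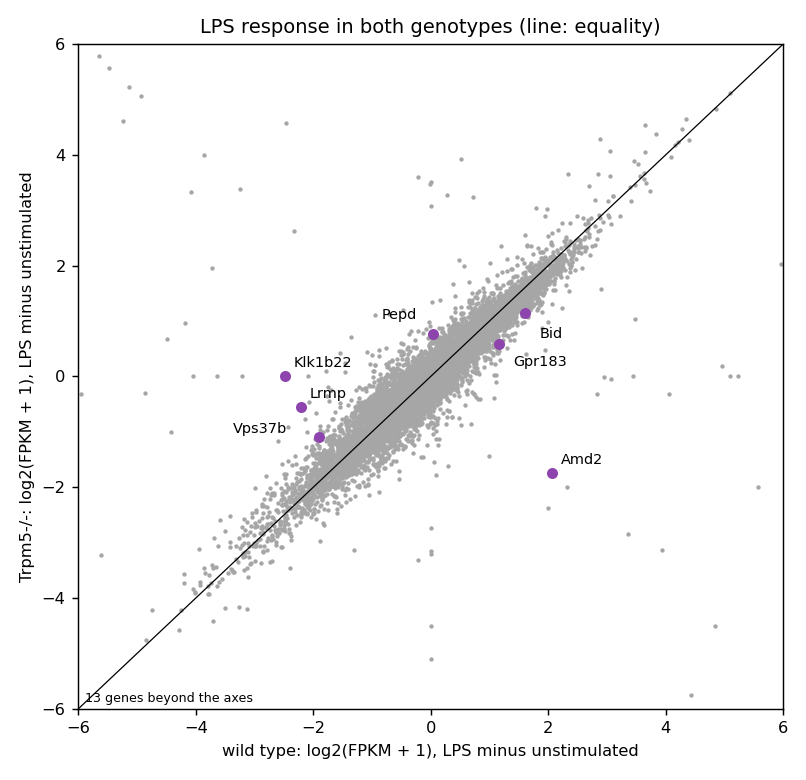
Log2 difference between LPS and unstimulated cells in Trpm5-/- (vertical axis) against wild-type cells (horizontal axis), 1 grey point per tested gene, with the line of equality and the 7 named genes whose responses differed between genotypes in purple. Most genes lie near the line (Pearson r 0.868 across genes); Lrmp lies at -0.56 against -2.21, and 13 genes lie beyond the axes.

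A stimulus through the antigen receptor, anti-IgM, gives a second view of the same cells. The 2 responses of Trpm5-/- cells share their unstimulated libraries, so the LPS libraries were compared with the anti-IgM libraries directly. Of the tested genes 3056 were higher with LPS (28.3%) and 2543 higher with anti-IgM (23.6%), 400 and 809 of them at least 2-fold (limma adjusted p under 0.05). The cytokine and chemokine genes of the LPS response led one side. Il1b read 128 and 115 FPKM after LPS and 0.492 and 1.01 FPKM after anti-IgM, below its unstimulated level of 5.998 and 6.75 FPKM (LPS minus anti-IgM 6.15 ± 0.16). Il6 read 0.376 and 1.18 FPKM with anti-IgM (5.69 ± 0.19), Cxcl10 2.84 and 3.11 FPKM (5.24 ± 0.39), Ccl22 2.68 and 2.81 FPKM (4.55 ± 0.22) and Ebi3 4.69 and 5.30 FPKM (4.40 ± 0.18). Dennd3, an activator of RAB12, was at 33.8 and 36.4 FPKM after LPS and 0.736 and 1.05 FPKM after anti-IgM, against 5.53 and 5.79 FPKM without stimulus (4.26 ± 0.15). Rasl11a, a small GTPase, was at 27.4 and 24.4 FPKM after LPS and 0.240 and 0.566 FPKM after anti-IgM (4.27 ± 0.27).

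On the other side stood genes higher with anti-IgM, and the 8 named here fell with LPS against unstimulated cells. Rab30, a GTPase of the Golgi, was at 26.01 and 25.1 FPKM without stimulus, 2.23 and 1.10 FPKM after LPS and 56.1 and 57.3 FPKM after anti-IgM (LPS minus anti-IgM -4.47 ± 0.16). Spp1 was at 0.649 and 1.04 FPKM after LPS and 39.7 and 36.2 FPKM after anti-IgM (-4.41 ± 0.17) and Ephx1, an epoxide hydrolase, at 5.33 and 10.2 FPKM after LPS and 134 and 136 FPKM after anti-IgM (-4.01 ± 0.20). Egr2, an early growth response factor of the antigen receptor, was at 26.5 and 23.6 FPKM without stimulus, 8.85 and 10.1 FPKM after LPS and 169 and 157 FPKM after anti-IgM (-3.97 ± 0.11). Gfi1, a transcriptional repressor, was at 2.37 and 1.61 FPKM after LPS and 34.6 and 35.2 FPKM after anti-IgM (-3.60 ± 0.17), Rasd1, a small GTPase, at 1.12 and 1.36 FPKM after LPS and 36.1 and 32.9 FPKM after anti-IgM (-3.99 ± 0.15), Uap1l1, an enzyme related to sugar nucleotide synthesis, at 7.63 and 5.13 FPKM after LPS and 81.8 and 83.4 FPKM after anti-IgM (-3.52 ± 0.14) and Cmtm8 at 0.230 and 0.888 FPKM after LPS and 16.9 and 15.9 FPKM after anti-IgM (-3.51 ± 0.33). The rule that named these 16 genes asked for a call and for LPS and anti-IgM libraries that do not overlap. Their limma adjusted p ranged up to 1.02e-05. Egr1, barely changed with LPS, was at 87.5 and 85.8 FPKM with anti-IgM (-1.33 ± 0.07).

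**Figure D5:**
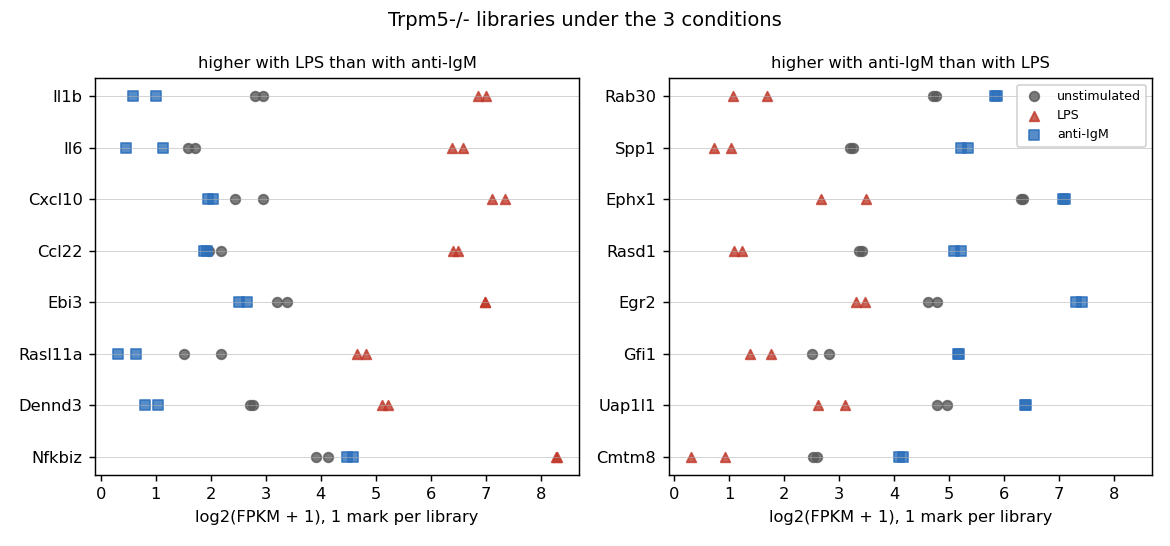
Log2(FPKM + 1) in the 6 Trpm5-/- libraries for 8 genes higher with LPS (left) and 8 higher with anti-IgM (right), circles without stimulus, triangles with LPS and squares with anti-IgM. The genes were chosen so that triangles and squares do not overlap. Their difference is 6.15 for Il1b on the left and -4.47 for Rab30 on the right.

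Set side by side, the lists differed in how the stimuli compared. Ribosome biogenesis had a median of 1.80 with LPS and 1.04 with anti-IgM, and 44 of 45 genes were higher with LPS in the direct test, 0 lower. The NF-kB family had medians of 1.16 and 0.38, with 11 of 13 higher and 1 lower. Lysosome genes had medians of -0.79 with LPS and 0.31 with anti-IgM, and 28 of 32 were lower with LPS, 3 higher. Psap was at 236 and 240.3 FPKM without stimulus, 68.6 and 67.3 FPKM after LPS and 330.4 and 338 FPKM after anti-IgM (LPS minus anti-IgM -2.28 ± 0.05). Plac8, a cysteine-rich protein of lymphoid and myeloid cells, was likewise at 1222 and 1169.8, then 216 and 174 after LPS and 1519 and 1514 FPKM with anti-IgM (-2.96 ± 0.09). Pan-B markers were lower with both stimuli, with medians of -0.71 and -1.43, and 8 of 15 were higher with LPS than with anti-IgM. Cd79a was at 566 and 505 FPKM after LPS and 544 and 528 FPKM after anti-IgM (limma adjusted p = 0.963). Fcer2a was at 560.4 and 554 FPKM after LPS and 59.9 and 53.4 FPKM after anti-IgM, against 83.5 and 85.7 FPKM without stimulus (3.28 ± 0.08).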

How the data were processed

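RNA of marginal zone B cells was measured by RNA-seq in 12 libraries, 2 in each of 6 groups. Per the labels' protocols, total RNA was purified with miRNeasy columns, cDNA was made with SMART-Seq HT, and libraries were made with Nextera XT. Per the submitters' processing notes, TopHat2 2.0.13, Bowtie2 2.2.3, SAMtools 0.1.19, Cufflinks 2.2.1 and the mm10 build were used. The deposited values are taken as FPKM per gene symbol, as the authors' use of Cufflinks and the values themselves have it; the files do not name the unit. Read counts were not used here, so precision rests on the spread of 2 libraries a group.

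From these values, log2(FPKM + 1) was fitted with limma 3.58.1 (R 4.3.3) as 1 mean per group over all 12 libraries (6 residual degrees of freedom, mean-variance trend, 2-sided) for genes that reached 1 FPKM in 2 or more libraries, and Benjamini-Hochberg adjusted over all 10797. A gene is called at an adjusted p under 0.05. Log2 differences are on the log2(FPKM + 1) scale, which understates changes of low genes, and carry the model's standard error; levels are compared between genes only as FPKM, which is per length. Differences smaller than sampling of reads allows cannot be bounded without counts. Where the text names genes, it takes the 14 largest rises and falls and the 6 largest gains and losses in FPKM (mean of at least 5 FPKM in the higher group, no overlap of libraries, no predicted models, receptor segments or small RNA genes), the members of smallest p of each list (up to 5), up to 6 a direction for the difference between genotypes, 8 a direction for LPS against anti-IgM, and Il6, Il10, Cxcl10, Myc and Egr1; a few of these are not reported here. The members and lists were chosen with earlier results of these data known. Alternatives were another pseudocount, other filters, 2 other scalings, a fit without trend, a fit of the compared libraries alone, a replicate block and leaving out each library. The 2 scalings were median-of-ratios and quantile normalization. The libraries already had median ratios between 1.008 and 1.015, so median-of-ratios scaling could hardly change the values. Only quantile normalization probes the scaling. Motifs were searched with Python 3.11.15 in RefSeq promoters.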

Additional observations from a re-analysis of the deposited data

Results flagged for a closer look

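The genes below had a response to LPS that differed between genotypes by the test of the difference itself (limma, Benjamini-Hochberg adjusted p under 0.05); values are the log2 response of Trpm5-/- cells minus that of wild-type cells. Lrmp differed by 1.65 (adjusted p = 0.00305). Vps37b differed by 0.812 (adjusted p = 0.0332). It was at 44.8 and 49.2 and then 22.9 and 20.3 FPKM in Trpm5-/- cells and at 67.3 and 69.5 and then 17.1 and 18.1 FPKM in wild-type cells, a fall in both. Pepd differed by 0.742 (adjusted p = 0.0336), with 47.9 and 44.8 and then 80.3 and 79.6 FPKM in Trpm5-/- cells and 43.8 and 42.3 and then 47.4 and 40.9 FPKM in wild-type cells. Gpr183 differed by -0.578 (adjusted p = 0.04), with 56.5 and 56.3 and then 84.3 and 85.3 FPKM against 61.6 and 64.9 and then 137 and 148 FPKM. Bid differed by -0.464 (adjusted p = 0.0336), with 83.3 and 82.6 and then 187 and 183 FPKM against 69.8 and 69.4 and then 215 and 214 FPKM. Amd2 differed by -3.80 (adjusted p = 0.0332), with 14.4 and 16.3 and then 5.93 and 2.44 FPKM in Trpm5-/- cells and 21.8 and 12.5 and then 75.9 and 68.2 FPKM in wild-type cells, so that it moved in opposite directions. Klk1b22 differed by 2.48 (adjusted p = 0.045) and was at 0 in the Trpm5-/- libraries and at 18.4 and 16.6 and then 3.47 and 1.44 FPKM in wild-type cells. Lrmp kept its call under every alternative run, and each of the other 6 lost it in at least 1.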

How the results depend on the processing

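Over the alternatives run, rises in Trpm5-/- cells with LPS numbered between 3428 and 3774, and falls between 2468 and 3731. Both lowest counts came from genes with a mean of at least 5 FPKM, where fewer genes were tested. The drop was unequal there, from 3759 to 3428 for rises and from 3654 to 2468 for falls, so the balance of directions depended on level. The difference between genotypes was less stable: against 7 higher and 4 lower, 4 and 0 were called without the mean-variance trend, 4 and 1 in the fit of the libraries compared, and 3 to 8 and 0 to 15 when single libraries were left out, the 15 without the first Trpm5-/- LPS library; the cause was not tested. Where leaving out a library left 1 in a group, that library is assumed to vary like the other groups. With the replicate number as a block, 3765 rose and 3636 fell with LPS, 3039 were higher and 2518 lower with LPS than with anti-IgM, and 5 were higher and 1 lower between genotypes; the deviations of same-numbered libraries from their group means correlated across genes at -0.139 between unstimulated and LPS, 0.199 between LPS and anti-IgM and -0.172 to 0.199 over all pairs of groups, and the labels name no shared source, so the numbers were not taken as pairs. Of 269 genes chosen for naming and called in the LPS response, 7 lost their call with quantile normalization and 4 in the fit of the libraries compared. Most of the 269 were chosen for a large difference or a small p, so these counts do not describe the other called genes. Rn45s, the ribosomal RNA precursor, at 1064 and 1136 and then 1134 and 1074 FPKM, had a difference of 0.01 that was -0.34 with quantile normalization and -0.0418 to 0.0532 without single libraries, and Rmrp, a small RNA, had 0.40, and -0.44 to 1.25 without single libraries.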

Other observations

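Further lists of the Trpm5-/- response to LPS concern metabolism and RNA turnover. Of 19 tested amino acid, nucleoside and iron transporters 13 rose and 1 fell (median 0.89). Slc16a1, which exports lactate, was at 14.8 and 15.3 and then 81.2 and 82.8 FPKM (2.37 ± 0.08), Tfrc, the transferrin receptor, at 25.3 and 25.6 and then 98.7 and 95.7 FPKM (1.89 ± 0.07) and Slc7a5, a carrier of large amino acids, at 32.02 and 28.3 and then 114 and 113 FPKM (1.89 ± 0.10). Of 34 tested sterol and fatty acid genes 19 rose and 8 fell (median 0.66). Fasn, the fatty acid synthase, rose from 20.4 and 21.7 to 73.5 and 86.3 FPKM (1.87 ± 0.08), and Sqle, an enzyme of cholesterol synthesis, from 65.4 and 62.5 to 175 and 163 FPKM (1.39 ± 0.07). Of 2 targets of the sterol sensor LXR, Abca1, which exports cholesterol, fell from 10.3 and 11.2 to 0.303 and 0.718 FPKM (-2.97 ± 0.16) and Mylip, which degrades the LDL receptor, from 20.5 and 20.5 to 2.30 and 2.60 FPKM (-2.64 ± 0.11). Glycolysis and hypoxia genes held 16 rises and 8 falls among 31, with a median of 0.20 as deposited and -0.10 after quantile normalization. Hk2, a hexokinase, was at 2.23 and 2.86 and then 22.1 and 19.7 FPKM (2.63 ± 0.14), and Ldha, the muscle-type lactate dehydrogenase subunit, at 781 and 761 and then 1969 and 1904 FPKM (1.33 ± 0.06). Folding genes of the endoplasmic reticulum held 19 rises and 5 falls among 32, with a median of 0.31 as deposited and -0.03 after quantile normalization, and Hspa5 (BiP) rose from 442 and 460.3 to 1118 and 1079 FPKM (1.28 ± 0.05). Of 24 heme and glutathione stress genes 13 rose and 2 fell, and Hmox1, heme oxygenase, went from 105 and 103 to 268 and 279 FPKM (1.39 ± 0.11).

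Of 11 tested mRNA decay factors 3 rose and 5 fell. Zc3h12d, an RNase relative of regnase, fell from 18.1 and 16.02 to 3.27 and 3.55 FPKM (-2.03 ± 0.14), and Zfp36 (tristetraprolin), which destabilises cytokine mRNA, from 117 and 117 to 53.1 and 59.9 FPKM (-1.04 ± 0.07), while its relative Zfp36l1 rose from 47.97 and 52.5 to 91.5 and 87.5 FPKM (0.82 ± 0.07). With anti-IgM, Zfp36 was at 128 and 133 FPKM. Of 12 tested MAP kinase brakes 5 rose and 2 fell; Dusp4 was at 15.1 and 16.6 and then 30.5 and 29.9 FPKM (0.89 ± 0.08) and Dusp6 at 4.69 and 5.95 and then 1.25 and 0.685 FPKM (-1.69 ± 0.19). Neat1, the nuclear RNA that builds paraspeckles, was at 58.1 and 59.8 FPKM without stimulus, 4.19 and 3.91 FPKM after LPS and 49.3 and 54.5 FPKM after anti-IgM (LPS minus anti-IgM -3.39 ± 0.10). Against unstimulated cells, the log2 difference of Neat1 with LPS was -3.57 in Trpm5-/- cells. In wild-type cells Neat1 fell from 77.7 and 81.1 to 3.65 and 3.11 FPKM with LPS (-4.20 ± 0.10). The difference between these 2 responses was not called. Malat1, the neighbour of Neat1 on the chromosome and another nuclear RNA, fell less than Neat1 in Trpm5-/- cells. It went there from 239 and 246 to 132 and 149 FPKM with LPS (-0.79 ± 0.10). Reference genes of constant use held 6 rises and 3 falls among 16, with a median of 0.08 as deposited and -0.20 after quantile normalization.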
